A study of Homo sapiens with 14 samples.

Results

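Sublibrary H7 is the last of 7 pools, named H1 to H7, into which the genome-wide CRISPR interference library hCRISPRi-v2-top5 was divided, and it was sorted on its own. Its members were all guides listed in the top-quartile or the bottom-quartile count table of H7. There were 19536 of them, out of 91463 guides in the 6 sublibraries that could be compared. Of these, 19223 were directed at gene starts and 313 were non-targeting guides, which match no gene and serve as the zero point. After a filter on low counts, 3946 targets of 3648 genes had at least 3 usable guides. Guides with one gene symbol and one start label form a target. The start label is P1P2 where 1 set of 5 guides serves a gene, P1 or P2 where separate sets serve 2 starts, or a transcript name.

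The screen, whose series title concerns downregulation of the delta opioid receptor (DOR), was run in HEK293 FLP-In cells, which derive from human embryonic kidney and hold an FRT docking site for transgenes. The line carried SSF-DOR-APEX2, DOR fused to the peroxidase APEX2 and placed by FRT recombination, and the repressor dCas9-KRAB-BFP, brought in by lentivirus before clonal populations were expanded. Whether 1 clone or several entered the screen is not stated in the labels. Guides were delivered at a multiplicity of infection of about 0.2, the carriers were selected from day 2 with puromycin (0.75 µg/ml for 3 days), and the cells were grown for 8 days in all.

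The top quartile of H7 holds the brightest cells in the APC channel, and the bottom quartile, against which it is set, the dimmest cells of the same sort. Cells of both quartiles had seen DADLE, a peptide agonist of DOR, at 10 µM for 90 minutes. Amplex UltraRed (100 µM) was then added, and hydrogen peroxide (50 µM) started a reaction that was stopped after 1 minute. There was 1 library per quartile and no unstimulated library. The sort therefore has no replicate check, and a shift in receptor loss after the agonist cannot be told apart from any other shift in the APEX2 signal. The libraries hold guide sequences from genomic DNA and no transcripts, so the cell type could not be checked against expressed markers and the degree of repression was not measured.

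In CRISPR interference a guide RNA brings dCas9-KRAB to a gene's start and lowers its transcription without cutting the DNA. After agonist binding DOR is endocytosed and then sorted on endosomes toward lysosomes, where it is degraded, or back to the surface. APEX2 uses heme to oxidise Amplex UltraRed to a fluorescent product with hydrogen peroxide, so a cell's brightness follows the amount of active fusion protein that the reagents reach. Guides that are more frequent in bright cells mark genes whose repression goes with more APEX2 signal, and guides more frequent in dim cells mark the opposite.

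H7 holds many genes with placeholder names. Open-reading-frame symbols such as C2orf54 made up 450 of its targets, FAM symbols 209, CCDC symbols 123, keratin-associated proteins 69 and readthrough genes 69. The H7 top library had 29995127 counts and the bottom library 29113624, with a median of 1283 counts per listed guide in top and 1240.5 in bottom. The count tables list guides by name only and give no guide letters, so the sequences shown here are start regions from RefSeq, build GRCh38.p14. They are those of the 3 targets enriched in dim cells and the 1 enriched in bright cells whose calls held under the most other settings tried, FAM101A apart. Lower case gives the 250 bases before the annotated start and capitals the first 50 bases after it, 5′ to 3′ on the gene's strand. SRFBP1 lies at chr5:121961725-121962024 on the plus strand, RPP25L at chr9:34612048-34612347 on the minus strand, RALGAPB at chr20:38472593-38472892 on the plus strand and YPEL5 at chr2:30146757-30147056 on the plus strand.
SRFBP1: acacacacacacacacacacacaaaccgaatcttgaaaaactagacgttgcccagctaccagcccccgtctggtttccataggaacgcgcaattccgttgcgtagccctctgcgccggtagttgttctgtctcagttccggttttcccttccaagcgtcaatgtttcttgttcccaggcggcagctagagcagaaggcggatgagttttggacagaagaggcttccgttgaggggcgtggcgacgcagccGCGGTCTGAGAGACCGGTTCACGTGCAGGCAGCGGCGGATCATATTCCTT
RPP25L: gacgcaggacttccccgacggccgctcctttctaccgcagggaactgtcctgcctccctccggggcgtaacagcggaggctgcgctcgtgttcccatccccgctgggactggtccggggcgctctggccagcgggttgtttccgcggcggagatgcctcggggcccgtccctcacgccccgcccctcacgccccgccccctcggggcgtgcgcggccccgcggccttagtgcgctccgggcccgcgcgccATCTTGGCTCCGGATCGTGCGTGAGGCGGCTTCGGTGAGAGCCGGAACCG
RALGAPB: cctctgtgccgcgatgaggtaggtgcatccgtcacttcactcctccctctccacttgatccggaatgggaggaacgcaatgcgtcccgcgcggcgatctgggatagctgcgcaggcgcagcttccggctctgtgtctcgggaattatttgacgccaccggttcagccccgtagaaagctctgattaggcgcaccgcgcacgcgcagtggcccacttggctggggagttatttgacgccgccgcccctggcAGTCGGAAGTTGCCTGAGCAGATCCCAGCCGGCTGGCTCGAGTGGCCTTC
YPEL5: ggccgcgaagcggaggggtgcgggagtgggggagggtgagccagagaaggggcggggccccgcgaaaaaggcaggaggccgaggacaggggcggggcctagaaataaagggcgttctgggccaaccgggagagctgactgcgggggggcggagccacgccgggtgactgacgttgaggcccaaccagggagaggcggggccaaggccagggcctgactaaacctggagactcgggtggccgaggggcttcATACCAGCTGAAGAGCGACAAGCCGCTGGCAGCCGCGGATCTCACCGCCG
The dinucleotide CG, read on this strand, occurs 23 times in the SRFBP1 region, 41 times in that of RPP25L, 28 times in that of RALGAPB and 25 times in that of YPEL5. The median was 14 over all 35116 start regions of the same length in the table and 18 over the 3807 that matched H7 genes. The sources used here name no genome build for the positions in the guide names, so no guide was placed on these letters.

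A guide's value is log2 of its share of the top library over its share of the bottom library, with 1 added to each count, centred on the median non-targeting guide of H7. Guide values were averaged to give the target's mean, printed with the SD over guides, and a positive value means more frequent in bright cells. Each mean was set against draws of as many guides from that target's guides and the non-targeting guides, in a two-sided permutation test. The p-values were adjusted by Benjamini-Hochberg over all 18116 targets of the 6 sublibraries, with a threshold of 0.05. They compare 2 libraries of one sort. Guides to one gene are not replicates of a condition, and intervals of counting do not cover PCR, since the reads carry no molecular identifiers.

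In H7, 23 of 3946 targets passed the threshold, or 0.583%, and these are the called targets. Of these, 13 were higher in the top library, 0.329% of the targets, and 10 were higher in the bottom library, 0.253%. Over all 6 sublibraries, H7 included, 3.88% of the targets passed. The whole set of H7 targets was centred near 0, with a median of 0.00, an SD of 0.18, a 2.5th percentile of -0.34 and a 97.5th percentile of 0.35. Means beyond 0.5 were as frequent on both sides, 34 above and 34 below, and 23 of these 68 passed. An unadjusted permutation p under 0.05 was found for 264 of the 3946 targets, or 6.69%. All guides lay on one side of 0 in 9 of the 10 targets called for dim cells and in 7 of the 13 called for bright cells. Since these guides set the calls, the counts describe how even the guides were and are no separate check.

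Genes of ribosome assembly held the 2 smallest adjusted p-values in H7, both for enrichment in dim cells. SRFBP1, a nuclear protein whose yeast counterpart Bud22 acts in assembly of the small ribosomal subunit, had 1127, 513, 779, 2221 and 1508 counts in the top library. The same 5 guides, in the same order, had 2681, 1136, 1648, 3133 and 2355 counts in the bottom library. Every guide was less frequent in bright cells, with values from -1.29 to -0.53. The mean was -0.96 ± 0.33 (SD, n = 5 guides), a 1.95-fold lower share in top, with a permutation adjusted p of 6.61e-04, the smallest that the draws could give. The guides carry positions 121297697 to 121297785.

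WDR75, a WD-repeat subunit of the small subunit processome, had 596, 394, 405, 1343 and 1520 counts in top, against 953, 1008, 1326, 1959 and 1653 in bottom. Its guides spread more widely, between -1.75 and -0.16, and none lay above 0. The mean of -0.92 ± 0.64 (SD, n = 5 guides) had the same permutation adjusted p of 6.61e-04. WDR55, a nucleolar WD-repeat protein, went the other way. Its 4 usable guides had 3723, 316, 1173 and 919 counts in top and 2145, 111, 976 and 728 in bottom, and the mean was 0.69 ± 0.57 (SD, n = 4 guides; permutation adjusted p = 0.0263). The highest WDR55 guide rested on 316 and 111 counts. Without the guide farthest from 0, the WDR55 mean was 0.43 and its permutation adjusted p over the remaining 3 guides was 0.073.

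Of the 24 ribosome assembly targets in H7, 1 was called for bright cells and 2 for dim cells, beside 0.583% of all H7 targets called, with a median of -0.01 beside 0.00 over all H7 targets. Their SD was 0.396, against 0.179 for all H7 targets. The other members farthest from 0 were CCDC86, a nucleolar protein, at -0.58 ± 0.67 (SD, n = 4 guides; permutation adjusted p = 0.0777) and NOL11, a subunit of the small subunit processome, at -0.51 ± 0.66 (SD, n = 5 guides; permutation adjusted p = 0.0801). Neither passed the threshold. Next in size, on the other side of 0, came WDR74 at its first start, with all guides above 0. Its mean was 0.48 ± 0.55 (SD, n = 5 guides; permutation adjusted p = 0.108), and it did not pass either. The second start of WDR74 lay at -0.07 ± 0.33 (SD, n = 5 guides; permutation adjusted p = 0.929). The lists were drawn up with earlier results of these data known and describe what H7 holds.

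CTNNBL1, RPP25L and RBM33 were also called for dim cells. CTNNBL1, a spliceosome-associated armadillo protein, had the lowest mean of all H7 targets at -1.06 ± 1.07 (SD, n = 5 guides; permutation adjusted p = 0.002). Its guides disagreed in size. A pair had 707 and 230 counts in top, against 2824 and 1161 in bottom, with values of -2.04 and -2.37, while the other 3 had 1290, 944 and 358 in top, against 1219, 1211 and 508 in bottom, with values from -0.54 to 0.04. The median of the 5 CTNNBL1 guides was -0.54, with a permutation adjusted p of 0.08, the exact rank-sum test gave an adjusted p of 0.101 and edgeR 0.261. RPP25L, a close relative of the RNase P and RNase MRP subunit RPP25, was more even. Its guides had 985, 2269, 1328, 313 and 2633 counts in top, against 1483, 4464, 2746, 376 and 3891 in bottom. Its mean was -0.73 ± 0.32 (SD, n = 5 guides; permutation adjusted p = 0.00355). RBM33, an RNA-binding protein, had a mean of -0.54 ± 0.25 (SD, n = 5 guides) with all guides between -0.85 and -0.16. It lay just inside the threshold, with a permutation adjusted p of 0.0496. Among the 28 spliceosome and splicing targets 0 were called for bright cells and 1 for dim cells, beside 0.583% of all H7 targets. Their median was 0.04.

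RPAP3, the scaffold that links HSP90 to the R2TP co-chaperone complex, had 2336, 1735, 937, 981 and 435 counts in the top library. The bottom library had 2944, 2041, 1822, 1417 and 1127 for the same guides. All guides lay below 0, from -1.41 to -0.27, and the mean was -0.72 ± 0.47 (SD, n = 5 guides; permutation adjusted p = 0.00432). RALGAPB, the non-catalytic subunit of the complex that switches off RAL GTPases, had the narrowest spread of the called targets. Its guides had 4135, 1246, 931, 4841 and 632 counts in top, against 6406, 1742, 1299, 7651 and 1296 in bottom. The mean was -0.70 ± 0.23 (SD, n = 5 guides; permutation adjusted p = 0.00536), and the guide positions span only 37101474 to 37101549.

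The remaining dim-cell calls were PHF23, FAM102B and COL4A5. PHF23, a PHD-finger protein that binds trimethylated lysine on histone H3, had a mean of -0.57 ± 0.39 (SD, n = 5 guides; permutation adjusted p = 0.0346), with guides from -1.10 to -0.10. FAM102B, now named EEIG2, had a mean of -0.66 ± 0.50 (SD, n = 5 guides; permutation adjusted p = 0.0112), and its farthest guide had 975 counts in top and 2531 in bottom. COL4A5, a chain of basement membrane collagen IV on the X chromosome, was the least abundant of the called targets, with 2188 counts over its guides in top and 2891 in bottom. Its mean over 4 usable guides was -0.63 ± 0.37 (SD; permutation adjusted p = 0.0442). One more guide had 0 counts in top and 31 in bottom and was removed by the filter.

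YPEL5 and AKIRIN2 were among the bright-cell calls with all guides above 0. YPEL5, a small zinc-binding protein of the CTLH ubiquitin ligase, had 783, 958, 811, 966 and 1809 counts in the top library, against 464, 453, 274, 623 and 1550 in the bottom library. Each guide was more frequent in bright cells, from 0.18 to 1.52. The mean was 0.81 ± 0.50 (SD, n = 5 guides; permutation adjusted p = 0.00321), so that the share in top was 1.75-fold higher. AKIRIN2, which carries proteasomes into the nucleus, had 858, 350, 3112, 642 and 399 counts in top and 353, 241, 2098, 414 and 327 in bottom. Its guides lay between 0.25 and 1.24, with a mean of 0.62 ± 0.37 (SD, n = 5 guides; permutation adjusted p = 0.0213). Of the 21 H7 targets listed as ubiquitin adaptors or linked to the proteasome, YPEL5 was the 1 called for bright cells. Calls for dim cells numbered 0, beside 0.583% of all H7 targets called in either direction, and the list's median was -0.01. AKIRIN2 is not in that list.

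PLEKHM1, an adaptor that joins RAB7 to the HOPS tether on late endosomes and lysosomes, had a mean of 0.82 ± 1.24 (SD, n = 5 guides; permutation adjusted p = 0.015) that came from a pair of guides. Those had 795 and 97 counts in top, against 227 and 16 in bottom, with values of 1.77 and 2.49. The other 3 had 1363, 1987 and 1243 counts in top, against 1194, 1870 and 1568 in bottom, and lay between -0.37 and 0.15. Without the guide farthest from 0 the PLEKHM1 mean was 0.40, with a permutation adjusted p over 4 guides of 0.065, and the median of its 5 guides was 0.15. WDR81, a WD-repeat protein that with WDR91 controls phosphoinositide turnover on endosomes, had a mean of 0.55 ± 0.56 (SD, n = 5 guides; permutation adjusted p = 0.0484) at its first start. Its farthest guide, with 485 counts in top and 173 in bottom, lay at 1.44, and without it the WDR81 mean was 0.33 with a permutation adjusted p over 4 guides of 0.138. The second start of WDR81 lay on the other side of 0, at -0.26 ± 0.50 (SD, n = 5 guides; permutation adjusted p = 0.515). Of the 16 targets listed for VPS and endosomal tether genes, PLEKHM1 was the 1 called, beside 0.583% of all H7 targets. The list's median was -0.00.

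YTHDF2, INTS2 and METTL13 were also called for bright cells. YTHDF2, a cytoplasmic reader of N6-methyladenosine that hands transcripts to decay enzymes, was the most abundant of the 3, with 3224, 489, 7691, 5610 and 921 counts in top. The bottom library had 2295, 440, 4522, 1871 and 578 counts for the same guides. All guides lay above 0 and the mean was 0.69 ± 0.53 (SD, n = 5 guides; permutation adjusted p = 0.00774). INTS2, a subunit of the Integrator complex that trims small nuclear RNAs and ends transcription, had a mean of 0.56 ± 0.54 (SD, n = 5 guides; permutation adjusted p = 0.045), with guides from -0.05 to 1.36. METTL13, which methylates the translation factor eEF1A, had a mean of 0.61 ± 0.92 (SD, n = 5 guides; permutation adjusted p = 0.0493). A single METTL13 guide with 181 counts in top and 37 in bottom gave 2.22, and without it the mean was 0.20.

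The list of transcription and chromatin complexes held 55 targets, of which INTS2 was called for bright cells and PHF23 for dim cells. Over all H7 targets 0.583% were called, and the median of the list was -0.01. VWA9, another Integrator subunit in later nomenclature (INTS14), had a mean of -0.53 ± 0.37 (SD, n = 5 guides) with all guides below 0 and a permutation adjusted p of 0.0554. INTS8 had a mean of 0.49 ± 0.35 (SD, n = 4 guides; permutation adjusted p = 0.154) with all guides above 0. The other Integrator members of the list (INTS3, INTS4, INTS7, INTS10, INTS12, ASUN and both starts of NABP2) had means from -0.36 to 0.30, and none of them passed the threshold.

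MMS22L, which works with TONSL in the repair of stalled replication forks, had larger values at its guides of lower count. Guides with 185, 584 and 943 counts in top, against 51, 189 and 490 in bottom, gave 1.80, 1.58 and 0.90. The remaining pair, with 903 and 1533 in top, against 742 and 1773 in bottom, gave 0.24 and -0.25. The mean was 0.86 ± 0.87 (SD, n = 5 guides; permutation adjusted p = 0.00355). The MMS22L call ended with at least 200 counts in either library (mean 0.62, permutation adjusted p over 4 guides 0.0527) and with at least 1000 summed counts, a setting chosen after seeing the data (mean 0.30, permutation adjusted p 0.256). It also ended under the exact rank-sum test (adjusted p = 0.31) and edgeR (adjusted p = 0.334), and held with the median over guides (permutation adjusted p = 0.00216). FAM101A, now RFLNA, a filamin-binding refilin, had 670, 683, 3531, 539 and 309 counts in top, against 332, 516, 946, 243 and 268 in bottom. Its guides ran from 0.17 to 1.86 and the mean was 0.89 ± 0.67 (SD, n = 5 guides; permutation adjusted p = 0.00118). C9orf24, now SPMIP6, a protein of sperm microtubules, had a mean of 0.56 ± 0.50 (SD, n = 5 guides; permutation adjusted p = 0.0473) with all guides above 0.

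C2orf54, now MAB21L4, had the highest mean of H7, 2.45 ± 4.61 (SD, n = 5 guides; permutation adjusted p = 0.00908), and it rested on 1 guide. That guide had 1598 counts in the top library while the bottom library had 0. Set against a floor of 3 counts in the bottom library, its share was at least 519-fold higher in top. The other 4 guides had 1248, 1789, 4918 and 913 counts in top, against 405, 1922, 4740 and 792 in bottom, and averaged 0.41. With the far guide held at its bound of 9.02 the mean was 2.13, and the median of the 5 guides was 0.17.

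RBM14-RBM4, a readthrough gene that joins 2 neighbouring RNA-binding protein genes, gave the only H7 call that a second sort measured with the same guides. At its first start it had 846, 211, 2019, 4509 and 435 counts in top, against 561, 82, 1191, 2956 and 495 in bottom. The mean was 0.59 ± 0.55 (SD, n = 5 guides; permutation adjusted p = 0.0331). Without the guide farthest from 0 the mean was 0.41, with a permutation adjusted p over the remaining guides of 0.0523. That guide, with 211 and 82 counts, lay at 1.31 in H7 and at 0.42 in H5. The exact rank-sum test gave the H7 target an adjusted p of 0.228 and edgeR 0.252. All 5 guides are also listed for the first start of RBM4 in sublibrary H5, where the mean was 0.53 ± 0.44 (SD, n = 5 guides; permutation adjusted p = 0.00706). RBM14 in H5 holds 3 of them, and had 0.31 ± 0.24 (SD, n = 5 guides; permutation adjusted p = 0.157), which did not pass. The second start of RBM14-RBM4 had a mean of 0.41 ± 0.30 (SD, n = 5 guides; permutation adjusted p = 0.18), all on the same side, and did not pass.

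Such repeated guides give the nearest thing to a second measurement of H7. Guides were matched by strand and position, with both genes on one chromosome in RefSeq. There were 281 H7 guides that also stood in H1, H2, H3, H5 or H6, which gave 292 pairs from separate virus pools and sorts. Over all pairs the H7 value and the other value had a Pearson correlation of 0.42 and a Spearman correlation of 0.29 (n = 292 pairs of the same guide, described without a test), and 177 pairs, or 60.6%, lay on one side of 0. Their difference had an SD of 0.385, while counting alone would give 0.102. The H7 values of these guides had an SD of 0.394 and the other values 0.310.

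Guides with a large value in the other sort mostly kept their side in H7. Of 25 pairs beyond 0.5 in the other sort, 22 had the same side in H7, or 88%. Within 0.5 of 0 it was 155 of 267, or 58.1%, with a Pearson correlation of 0.11. A guide listed for RPS10-NUDT3 in H7 and for RPS10, a small subunit ribosomal protein, in H3 had 533 counts in top and 1528 in bottom of H7, a value of -1.56, against -1.19 in H3. One shared by KIAA0895 and ANLN, an actin-binding protein of the cytokinetic ring, had 473 counts in top and 207 in bottom of H7, a value of 1.15, against 1.89 in H2. The guide shared by TEN1 and CDK3 gave -1.56 in H7, against -1.18 in H1, and the one shared by TTC7A and MCFD2 gave -1.07 in H7, against -1.02 in H1. The 3 pairs of the 25 on opposite sides were those of KCNJ18 with KCNJ12 (-0.20 in H7, against 0.58 in H1), SRRM5 with ZNF576 (0.35 in H7, against -0.52 in H5) and TMEM56-RWDD3 with TMEM56 (-0.60 in H7, against 0.70 in H6). Outside the 25, the farthest H7 value on the opposite side belonged to a guide listed for GTF2H2D in H7 and for its near-identical copy GTF2H2C in H2. It had 89 counts in top and 523 in bottom of H7, a value of -2.58, against 0.48 in H2, where it had 183 and 103 counts.

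At the level of targets, 59 pairs shared at least 3 guides between H7 and another sublibrary. The means over those guides had a Pearson correlation of 0.66 and a Spearman correlation of 0.36 (n = 59, described without a test). Not all 59 are separate measurements. RBM14-RBM4, for instance, enters with both RBM14 and RBM4, and the pairs of TCP11X1 with NXF2 and TCP11X2 with NXF2B hold the same values. In 4 of the 59 pairs the target of the other sublibrary was called, and in all 4 the H7 mean of the shared guides lay on the same side. They were RBM14-RBM4 with RBM4, RPL36A-HNRNPH2 with RPL36A, KIAA0895 with ANLN, and ATP5J2-PTCD1 with ATP5J2. RPL36A-HNRNPH2 had 0.43 ± 0.30 (SD, n = 5 guides; permutation adjusted p = 0.152) in H7, against 0.45 ± 0.29 (SD, n = 5 guides; permutation adjusted p = 0.00238) for RPL36A in H3. KIAA0895 at its second start had 0.50 ± 0.46 (SD, n = 4 guides; permutation adjusted p = 0.141) in H7, against 0.69 ± 0.85 (SD, n = 5 guides; permutation adjusted p = 0.00395) for ANLN in H2. The first start of KIAA0895 had 0.41 ± 0.66 (SD, n = 5 guides; permutation adjusted p = 0.2). ATP5J2-PTCD1 had 0.47 ± 0.37 (SD, n = 5 guides; permutation adjusted p = 0.112) in H7, against 0.36 ± 0.27 (SD, n = 5 guides; permutation adjusted p = 0.0349) for ATP5J2 in H2. These 3 H7 means were of about the size seen in the other sort and did not pass the threshold in H7.

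The spread of the non-targeting guides was wider in H7 than in each other sublibrary compared. Their SD was 0.333 over 308 guides, against 0.215 to 0.272 over 241 to 290 guides in the other 5. Counting alone would give an SD of 0.0843. The interquartile range of the non-targeting guides differed less, at 0.320 in H7, against 0.237 to 0.306 in the other 5, with 0.306 in both H2 and H6. In a two-sided Brown-Forsythe test of equal spread, adjusted over the 5 comparisons, the difference passed against H1 (adjusted p = 0.00905, n = 308 and 250 guides), H2 (0.0102), H3 (1.83e-04) and H5 (3.97e-04), and did not pass against H6 (0.0528). The guides of one sublibrary share a transduction and a sort, so these p-values describe 2 pools of guides.

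H7 guides were also unevenly represented. The summed count of non-targeting guides had an SD of 1.36 on the log2 scale in H7, against 0.69 to 1.04 in the others. Guides with under 200 summed counts made up 3.17% of H7, against 0.0769% to 2.04% in the others. The spread of values widened as counts fell. For targeting guides the SD was 0.205 over 3000 summed counts, 0.322 from 1000 to 3000, 0.541 from 200 to 1000 and 1.18 under 200. Non-targeting guides followed the same steps, with 0.171, 0.260, 0.561 and 0.773, the last over 6 guides. Values beyond 1 in size were found for 361 of 19006 targeting guides, or 1.90%, and for 5 of 308 non-targeting guides, or 1.62%.

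Guides to one gene agreed little. The intraclass correlation over targets with 5 guides was 0.041 in H7, against 0.019 in H6 and 0.27 to 0.34 in H1, H2, H3 and H5. Among targets with 5 usable guides, all guides lay on one side of 0 in 8.22% in H7, against 8.27% to 13.7% in the others. All 5 guides of a target were usable in 83% of H7 targets. Of genes with separate first and second starts, 231 had both measured, and the 2 means had a Pearson correlation of 0.04 and a Spearman correlation of -0.02 (n = 231 genes, described without a test), with 106 pairs on one side of 0. Targets labelled P1P2 held 21 of the calls, 11 for bright and 10 for dim cells among 3017. First starts held 2 for bright and 0 for dim cells among 231, while second starts (232) and transcript-named starts (466) held 0. Over all H7 targets 0.583% were called, so counts of 0 in groups of these sizes were not read as a difference between start labels.

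Single guides far from 0 were mostly alone in their target. Beyond 3 in size lay 15 guides, 10 toward bright and 5 toward dim cells, and C2orf54 was the only called target among them. Most of the 15 had under 50 counts in their lower library and passed the filter only through the library where they were high. The filter thus shaped these values, and they were not read as results about the genes. The farthest guides of the called targets C2orf54, METTL13 and PLEKHM1 passed in the same way. LYRM9 had a guide with 372 counts in top and 0 in bottom, at least 121-fold higher in top, while its other 4 guides averaged -0.02. RPGR, a ciliary GTPase regulator, had a guide with 1217 counts in top and 64 in bottom, a value of 4.19, and its other guides averaged -0.01. CWC25, a splicing factor, had a guide with 0 counts in top and 52 in bottom, at least 17.8-fold lower in top, and its other guides averaged 0.16. SPATA4 had 1 guide with 61 counts in top and 611 in bottom, a value of -3.34, beside -0.01 for its others. In H7, 51 guides were listed in only 1 of the libraries, 25 at 0 in top and 26 at 0 in bottom.

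The list of WASH and Commander genes held endosomal recycling factors. The WASH complex builds actin on endosomes, and the Commander complex, which contains the COMMD proteins, works with it to return receptors to the surface. Of the 9 targets listed, 0 were called in either direction, beside 0.583% of all H7 targets. Their median was -0.19, the lowest of the 46 lists with at least 3 H7 targets, beside 0.00 over all H7 targets. A list on the other side lay farther from 0, the 3 targets for mitochondrial ribosome and gene expression with a median of 0.23. The 9 WASH and Commander targets cover 8 genes, since COMMD6 enters with both starts. COMMD6 at its first start had 1864, 2091, 2878, 1255 and 552 counts in top, against 2460, 2727, 3601, 1502 and 962 in bottom, with a mean of -0.47 ± 0.21 (SD, n = 5 guides; permutation adjusted p = 0.1). COMMD3 had 5361, 3273, 1854, 4925 and 1955 counts in top, against 5940, 4128, 2336, 6069 and 2478 in bottom, with a mean of -0.33 ± 0.08 (SD, n = 5 guides; permutation adjusted p = 0.33).

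All guides of COMMD6 at its first start, COMMD3, COMMD7 (-0.25 ± 0.13) and COMMD2 (-0.12 ± 0.12; SD, n = 5 guides each) lay below 0. The second start of COMMD6 had a mean of -0.19 ± 0.20 (SD, n = 5 guides; permutation adjusted p = 0.69) with 3 of 5 guides below 0. COMMD8 had a mean of 0.14 ± 0.44, and the WASH members KIAA1033, FAM21A and FAM21C had -0.19 ± 0.28, 0.03 ± 0.23 and -0.06 ± 0.14 (SD, n = 5 guides each). Without the guide farthest from 0, the first start of COMMD6 had a permutation adjusted p of 0.0674. The median over guides gave it 0.157, and a minimum of 200 counts in either library 0.0699. It was called in 5 of the 15 other settings tried, and COMMD3 in 4. edgeR's quasi-likelihood test was run on the targets with 5 guides and with each guide as a block. It takes guides as replicates of the quartile, which they are not with 1 library per group. That test weighs the evenness of guides, and it called 8 targets for dim cells: SRFBP1, RPP25L, RALGAPB, RBM33, COMMD6, COMMD3, COMMD3-BMI1 and FAM60A. The exact rank-sum test called the same 8 among its 14. COMMD3-BMI1 holds the guides of COMMD3 and the same counts, so it is not a further measurement. In H7, 110 guide positions were listed under more than 1 gene, and the counts were identical at all 110.

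Families made of tissue-restricted genes held 0 calls in either direction. Among 69 targets of keratin-associated proteins, the median was -0.02 with a range from -0.56 to 0.98. Keratins (22 targets), late cornified envelope and SPRR genes (30), defensins (42), cancer-testis antigens (64), protocadherins (31) and olfactory receptors (16) had medians between -0.02 and 0.02. At the 0.583% called in H7, under 1 call would fall on a list of any of these sizes, so their counts are near the background. Open-reading-frame symbols held 2 calls for bright and 0 for dim cells among 450, FAM symbols 1 and 1 among 209, and CCDC symbols 0 and 0 among 123. The 36 WDR targets held 2 calls for bright cells (WDR55, WDR81) and 1 for dim cells (WDR75).

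Lists of genes near the receptor and the reporter chemistry were short, and at the 0.583% called in H7 under 1 call would fall on each, so counts of 0 are near the background. The 31 targets for G protein, arrestin and receptor regulation held 0 calls, with a median of 0.02 and a range from -0.34 to 0.26. GNAT2, a transducin subunit, lay farthest from 0, at -0.34 ± 0.61 (SD, n = 5 guides; permutation adjusted p = 0.342). The 11 targets for heme, iron and redox genes held 0 calls, with a median of -0.00. TXNDC17, a thioredoxin-like protein, had a mean of -0.37 ± 0.28 (SD, n = 5 guides; permutation adjusted p = 0.257) with all guides below 0. Among the 21 targets for mTORC1, autophagy and nutrient sensing, WDR81 was called for bright cells and 0 for dim cells. FNIP1, a folliculin partner, had -0.46 ± 0.27 (SD, n = 5 guides; permutation adjusted p = 0.114).

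Guide abundance was read as the log2 of the summed counts of both quartiles relative to the median non-targeting guide. It holds the guide's representation in the virus pool as well as any loss of cells during growth, and these cannot be told apart here. Over targets its median was -0.08, and 439 of 3946, or 11.1%, lay under -1. Those 439 held 2 calls for bright and 1 for dim cells, beside 0.583% of all H7 targets called. Their values had an SD of 0.248, against 0.169 for the rest. Abundance and the top-to-bottom value were nearly unrelated across targets (Pearson 0.00, Spearman 0.00, n = 3946, described without a test). The targets called for bright cells had a median abundance of -0.53 and those called for dim cells 0.36. The lowest targets with at least 4 usable guides were CHURC1-FNTB at -2.74 ± 3.98 (SD, n = 5 guides listed), LRRC6 at -2.62 ± 3.06 and SPATA22 at -2.38 ± 3.67, followed by AOC1 at its second start, SAMD9, PHLDB1 at its second start, HAUS4, RSG1, LRRCC1 and TARM1, down to -2.26. Their top-to-bottom means lay between -0.26 and 0.15, and 0 of the 10 were called. Abundance also counted guides that the filter removed. In CHURC1-FNTB, LRRC6 and SPATA22 such a guide lay at -9.58, -7.26 and -8.58, below the other guides of its target, so these means do not describe all guides alike.

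Another gene's guides lay within 1000 bases in 455 of 3946 H7 targets, or 11.5%, and in 2 of the 23 called ones. Those were RBM14-RBM4 and COL4A5, whose neighbour COL4A6 had a mean of -0.25 in H2 with a permutation adjusted p over 5 guides of 0.273. In 25 pairs an H7 target lay within 1000 bases of a target called in another sublibrary and shared no guide with it. The H7 mean was on the same side as the neighbour in 20 of the 25. Of these H7 targets 0 were called, beside 0.583% of all H7 targets. Counted toward the neighbour's side, the H7 means had a median of 0.10, against a median size of 0.58 for the neighbours. SMYD4 had 0.37 in H7, 273 bases from RPA1, a subunit of the single-strand DNA binding complex, with 0.90 in H2. CCDC87 had -0.24 in H7, 177 bases from CCS, the copper chaperone for superoxide dismutase, with -0.64 in H3. PCED1A had 0.14 in H7, 81 bases from VPS16 of the HOPS tether, with 2.11 in H3. TSACC had 0.02 in H7, 290 bases from CCT3, a chaperonin subunit, with 1.78 in H1. Farthest on the opposite side was CEP95 with -0.60 in H7, 719 bases from the RNA helicase gene DDX5 with 0.43 in H3. These pairs were named after their values were seen.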

How the data were processed

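The authors deposited 1 table per library with the count of each guide, in whole numbers that were not normalized. Guides were amplified from genomic DNA in 27 PCR cycles, per the labels' protocols, and Bowtie was used, per the submitters' processing notes. The version, other counting settings and the genome build of the guide positions are not given in the sources used. Depth is the total count of each library, from 18054418 to 34636612 over the 12 libraries, and the spread given for counting covers counting error only. Samples were grouped by the sublibrary and quartile in their titles, 1 library per group. H4 was not used, since its top table ends within a guide's name.

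A guide absent from 1 table of a sublibrary was taken as 0. Guides under 50 counts in both libraries were left out, which removed 222 of 19536 in H7. Targets with at least 3 remaining guides were kept, of which 3274 had 5, 618 had 4 and 54 had 3. The permutation test used 100000 draws over all 6 sublibraries, with a smallest p of 1e-05, and was tested on simulated data. edgeR's quasi-likelihood test (version 4.0.16) was an alternative on targets with 5 guides, and no count model could be the main test with 1 library per group. The other tools were Python 3.11.15, numpy 2.4.6, pandas 2.3.3 and scipy 1.17.1. Of 3648 H7 symbols, 3561 matched 1 RefSeq symbol (GRCh38.p14), 564 of them under an older symbol.

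Named targets were every target past the threshold, the 10 highest and lowest means with at least 4 guides on one side, up to 2 members farthest from 0 in each functional list, the 10 least abundant, genes with both starts beyond 0.4 and guides beyond 3. Some of them are given as counts only, and others are not described above. Among those left out, FAM194A (mean 1.16), GRAP (-0.77) and MAGEB18 (-0.61) were among the highest and lowest means and did not pass the threshold. Repeated guides were named after their values were seen. So were members beyond the first 2 of the lists for WASH and Commander, ribosome assembly, and transcription and chromatin complexes. The members and lists were chosen with earlier results of these data known.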

Additional observations from a re-analysis of the deposited data

How the results depend on the processing

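The 13 targets called for bright cells and 10 for dim cells were recomputed under 15 alternatives, of which 3 were chosen after seeing the data. No target was called under all of them. Calls for bright cells numbered 1 without a filter on guide counts, 6 with the median over guides, 7 without the guide farthest from 0, 7 with the exact rank-sum test and 3 with adjustment over H7 targets only. edgeR's quasi-likelihood test gave 0 calls for bright cells with library sizes scaled on non-targeting guides and 0 with TMM, with 163 and 162 of 3274 targets at an unadjusted p under 0.05 in either direction. Calls for dim cells numbered 3 without a count filter, 5 with the median and 5 with adjustment over H7 alone; under the remaining planned settings there were 8 to 14. Under the added settings, guides with at least 1000 summed counts gave 37 calls for bright and 33 for dim cells. Leaving out the 5 non-targeting guides beyond 1 gave 29 and 29. That last setting removed far guides from the reference only and kept such guides in the targets, so a rise in calls follows from it. A second set of draws gave 12 and 10, losing METTL13. With a minimum of 200 counts in either library, non-targeting guides had an SD of 0.305.

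SRFBP1 and RPP25L were called in 14 of 15 alternatives, all but the one without a count filter, with means from -1.12 to -0.88 and from -0.83 to -0.63. RALGAPB was called in 13, and WDR75, FAM101A and YPEL5 in 12. Calls were held least often by METTL13 (5), PLEKHM1 (6), INTS2 and WDR81 (7 each). Over all named targets no alternative turned a called direction round. No paired analysis was possible because the labels give no replicate numbers and each group has 1 library.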

Other observations

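Of the targets that did not pass the threshold, 15 were called under both settings below, among the 3 chosen after seeing the data. The first took guides with at least 1000 summed counts, and the second left out the non-targeting guides beyond 1. The second kept targeting guides beyond 1, which tends to lower the p-values by itself, so calls under it are no further support. Of the 15, 9 lay toward dim cells. They were CCDC86 and NOL11 of ribosome assembly, the Integrator subunit VWA9, COMMD6, FNIP1, the histone chaperone SPTY2D1, C1orf131, TEN1 and CCDC8. Toward bright cells lay UTP14C, a processed copy of a small subunit processome gene, MYEOV2 (now COPS9, a COP9 signalosome subunit), ERICH1, PRR14L, CMIP and ATP5J2-PTCD1. The MYEOV2 mean was 0.46 ± 0.21 (SD, n = 5 guides; permutation adjusted p = 0.116), and the UTP14C mean was 0.43 ± 0.34 (SD, n = 5 guides; permutation adjusted p = 0.156). The SPTY2D1 mean was -0.45 ± 0.34 (SD, n = 5 guides; permutation adjusted p = 0.132). These lists were read from the same 2 libraries and have no replicate check.

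FAM60A, a subunit of the SIN3 histone deacetylase complex, did not pass the threshold. It was called by edgeR, which takes guides as replicates, and by the exact rank-sum test (adjusted p = 0.00898). Its guides ran from -0.50 to -0.35, with a mean of -0.39 ± 0.06 (SD, n = 5 guides; permutation adjusted p = 0.221).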
